A study of Mus musculus with 10 samples.

Results

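The genes described here are the collagen chains, the laminin chains and the integrin chains, together with Fn1, Sparc, Vim, Acta2 and Timp1, in cultured mouse hepatocytes. The rule reads gene symbols alone, but it was set with earlier results of these data known. Of the 18055 genes listed in any library, 80 met the rule, and 63 of these were listed in every library. The 80 were 37 collagen chains, 10 laminin chains, 26 integrin chains, the 5 genes named above, and Itgb3bp and Itgb1bp2, whose symbols fit the rule although neither is an integrin chain. A filter on low counts left 60 of them for testing (25 collagen chains, 10 laminin chains, 19 integrin chains, the 5 named genes and Itgb3bp). The other 20 reached at most 0.18 FPKM (fragments per kilobase of transcript, scaled to library size) in a library and were not tested. A further 10 genes of this kind, among them Col11a1, Col4a6 and Lamc3, were listed in no library.

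RNA was sequenced from primary hepatocytes of C57BL/6 mice, with 2 libraries in each of 5 groups. Cells received Vehicle, PA (palmitate at 200 μM, a saturated fatty acid) or LA (linoleate at 12 μM, a polyunsaturated fatty acid), and in PA+NTP and LA+NTP Neurotropin (NTP, an extract of inflamed rabbit skin) was added 1 h before the fatty acid. Fatty acids were left on the cells for 24 h. The cells of every group had been released from liver with collagenase, an enzyme that digests collagen, had been plated on a coat of type I collagen, and had first been kept in medium with serum, which carries fibronectin, so all of them had met matrix that they did not make. No group received NTP without a fatty acid, so the effect of NTP alone was not measured. The labels do not say that the 2 libraries of a group came from separate animals or cultures, so the p-values measure the spread between these libraries, which may be technical.

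The extracellular matrix is the protein network outside cells. Fibrillar collagens build its cables, type IV collagen and laminins build the sheets called basement membranes, and fibronectin joins both to cells. Collagens are trimers of chains wound into a triple helix, laminins are crosses of an alpha, a beta and a gamma chain, and integrins are receptors of an alpha and a beta chain that bind these proteins outside the cell and the actin skeleton inside it. In liver, hepatocytes secrete the fibronectin of plasma, while most fibrillar collagen is made by stellate cells, the pericytes of the sinusoids, which take on smooth muscle actin (Acta2) and lay down scar when activated. Freshly plated hepatocytes flatten, spread and raise cytoskeletal and adhesion genes over time in culture.

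The expected counts of a library summed to between 13142588 (PA replicate 1) and 60046937 (LA+NTP replicate 2). How far a gene stood from its own average in a given library followed the GC content of its transcripts. Across 13930 genes Spearman's rho was negative in the 4 libraries with a fatty acid alone (-0.573 to -0.477) and positive in the other 6 (0.346 to 0.576). Tested collagen chains had a median transcript GC content of 57.1%, against 49.9% over all tested genes, so each comparison is also given after a smooth trend on GC content was removed from every library. The 10 hepatocyte markers summed to 4620 to 4920 FPKM in Vehicle and 3320 to 3710 FPKM in PA. Of the 10, 5 were lower in PA, where 8.92% of all tested genes were. Most of the sum came from Alb (2594 and 2529 FPKM in Vehicle) and Fgb (1135 and 1074). Neither was among the 5, with log2 fold changes of -0.3 and -0.23. Stellate cell markers summed to 16.6 to 20.1 FPKM in every library, of which Dcn alone gave 11.8 to 14.95. Among the other stellate markers Lrat, Pdgfrb and Reln were lower in PA, and each stayed below 1 FPKM. Endothelial markers summed to 54.8 to 55.4 FPKM in Vehicle, 40.7 to 41.2 in PA and 43.1 to 44.6 in LA. None of the 7 listed markers of portal fibroblasts and mesothelium passed the filter on low counts. In these bulk libraries, fewer cells of a type and less RNA per cell cannot be told apart, and the part of other cell types in the results below was not tested.

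The helix of a fibrillar collagen is rich in G and C in its coding sequence. It is a run of triplets, glycine followed by 2 further residues that are often proline, and the codons of glycine (ggn) and proline (ccn) begin with 2 strong bases. In the longest coding transcripts of GENCODE M21, this run is 338 triplets in Col1a1, 339 in Col1a2 and 344 in Col3a1. The first 30 codons of each run are printed below because these 3 genes share this design while their whole transcripts differ in GC content. Capitals mark bases at the last position of a codon that are G or C.
Col1a1: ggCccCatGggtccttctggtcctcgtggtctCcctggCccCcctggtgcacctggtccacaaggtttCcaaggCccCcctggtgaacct
Col1a2: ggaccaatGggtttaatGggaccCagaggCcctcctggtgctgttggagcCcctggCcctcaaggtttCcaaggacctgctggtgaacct
Col3a1: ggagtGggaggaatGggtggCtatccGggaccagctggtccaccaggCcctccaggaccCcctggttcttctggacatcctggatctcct
These stretches hold 66.7% G and C in Col1a1, 60% in Col1a2 and 63.3% in Col3a1. The last base was G or C in 9 of the 30 codons of Col1a1, 7 of those of Col1a2 and 6 of those of Col3a1. Over the whole coding sequence the share of last bases that are G or C was 42.3%, 35.0% and 28.4%, and the whole transcripts, whose GC content was used for the trend, held 57.8%, 46.8% and 46.8% GC. Those of Col1a2 and Col3a1 thus lie below the median of all tested genes although their helix stretches do not.

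Fibronectin carries the tripeptide arginine-glycine-aspartate (RGD), which integrins made of Itga5 or Itgav with a beta chain recognize. It is shown because the ligand and both of these receptor chains passed the test, though not all in the same comparison. In the longest coding transcript of Fn1 the 3 codons occur at codons 1614 to 1616, in capitals, here with 9 codons on each side.
Fn1: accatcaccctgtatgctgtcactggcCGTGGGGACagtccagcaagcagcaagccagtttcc
The 63 bases printed hold 58.7% GC. A second RGD, at codons 2181 to 2183, was also found in that transcript, with 52.4% GC in the 63 bases around it.

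Measured per length, the matrix and adhesion genes of these cells were dominated by few members. Over the 10 libraries, 31 of the 80 genes had a mean of at least 1 FPKM, and 29 of the 60 tested genes had a lower one. In Vehicle the highest were Vim (476 ± 26 FPKM, SD, n = 2), which encodes the intermediate filament vimentin, Fn1 (333 ± 12.0) and Itgb1 (183 ± 7.8), the beta chain that pairs with most matrix-binding alpha chains. Col18a1 (61.3 and 58.6 FPKM), the source of the fragment endostatin and a collagen that hepatocytes are known to make, was the highest collagen. It was followed by the basement membrane pair Col4a1 and Col4a2, at 18.9 to 19.7 and 13.76 to 14 FPKM in Vehicle. Fibrillar Col1a1 and Col1a2 stood at only 1.73 ± 0.078 and 1.31 ± 0.18 FPKM in Vehicle.

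The first comparison asked how PA changed these genes. With PA, 13 of the 60 tested genes fell (21.7%) and 2 rose (3.33%) relative to Vehicle. Over all 14097 tested genes, 8.92% fell and 6.0% rose. A gene was counted when its adjusted p from edgeR's quasi-likelihood test was under 0.05 and its fold change at least 1.5. The median log2 fold change was -0.25 over the 60 genes and -0.01 over all genes. By family, 6 of 25 collagen chains, 3 of 10 laminin chains, 2 of 19 integrin chains and 2 of the 5 named genes fell, and 2 integrin chains rose. After the GC trend was removed, 9 of the 60 fell, where 5.42% of all genes did, and 2 rose, where 2.99% of all genes did.

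Fn1 had the smallest adjusted p of the 60 genes in this comparison. It stood at 324 and 342 FPKM in Vehicle, 159 and 147 with PA, 295 and 269 with PA+NTP, 223 and 238.8 with LA, and 375 and 374 with LA+NTP. Both PA libraries lay below every other library, and both LA libraries lay below all libraries except those of PA. The log2 fold change of Fn1 with PA was -1.08 (SE 0.07, adjusted p = 7.63e-08), a 2.12-fold decrease. It was -0.95 after the GC trend was removed, which also passed, and it passed whichever library was left out. The rule of the tool NOISeq was rewritten here from its published definition. An FPKM of 0 was replaced by 0.5, which is above the lowest listed value of 0.01, and the effect of this setting was not tested. By this rule 0 of the 60 genes passed in any comparison of 2 groups. This was at a probability of 0.95, the threshold of the study's methods. The study reported far more changed genes with PA and with LA at that threshold, so the rewritten rule did not reproduce its calls. That rule passed 0.0284% of all tested genes with PA, with LA and with NTP before LA, 0.0213% with NTP before PA and 0.0% in the other 3 comparisons, so its count says nothing about these genes in particular. At a probability of 0.8 it passed 3 of the 60 with PA (5.16% of all genes), 0 with LA (4.14%), 1 with NTP before PA (3.62%), 4 with NTP before LA (8.56%), 0 in PA+NTP against Vehicle (0.922%), 0 in LA+NTP against Vehicle (0.17%) and 1 in PA against LA (0.958%).

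Acta2, the smooth muscle actin of activated stellate cells and myofibroblasts, fell with PA. It stood at 8.85 and 8.90 FPKM in Vehicle and 4.98 and 5.91 with PA, without overlap. The log2 fold change was -0.65 (SE 0.13, adjusted p = 0.00117), and -0.66 after the GC trend was removed. Without PA replicate 1 the change was -0.56 and fell short of 1.5-fold. Sparc, a secreted protein that binds collagen, had an adjusted p of 0.000232 but a log2 fold change of -0.48, under the fold required. Its levels were 33.5 and 31.2 FPKM in Vehicle and 22.2 and 22.9 with PA. Vim had a log2 fold change of -0.32, and Timp1, an inhibitor of matrix metalloproteinases, one of 0.16 (adjusted p = 0.657).

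**Figure D1:**
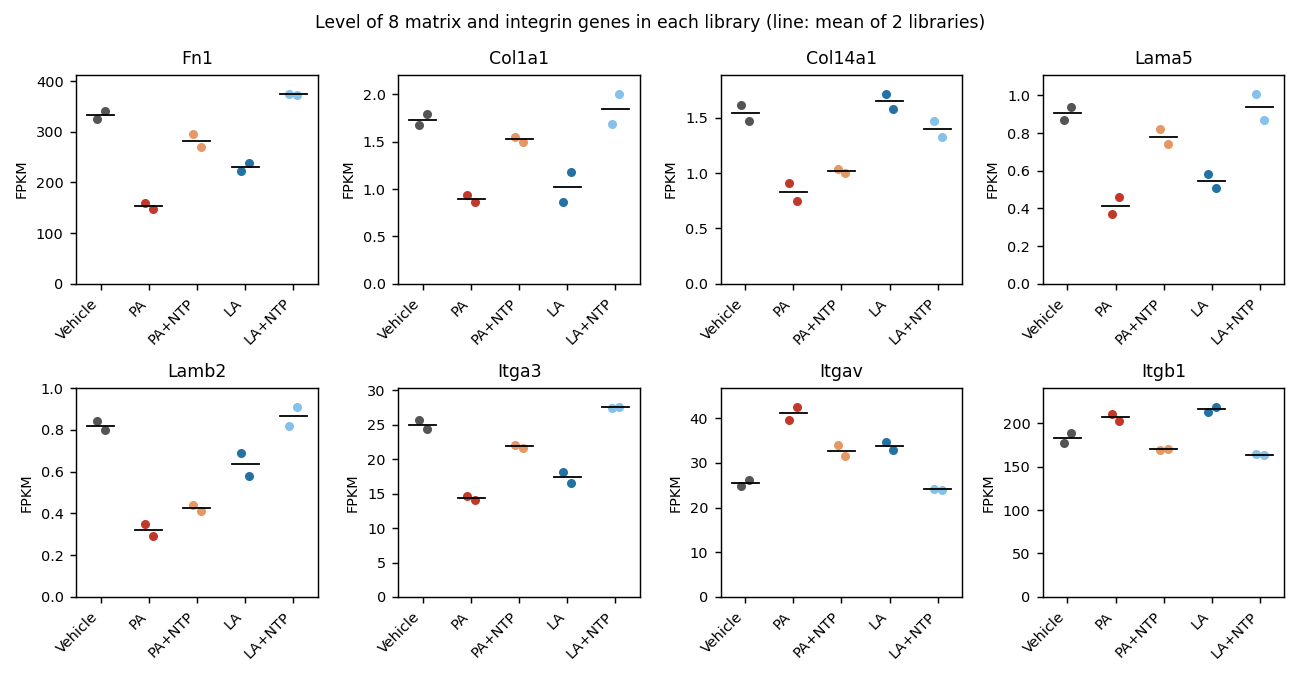
Level in FPKM (vertical axes, from 0) of Fn1, Col1a1, Col14a1, Lama5, Lamb2, Itga3, Itgav and Itgb1 in each of the 10 libraries, by group (horizontal axes). Points are libraries and lines are means of 2, and both PA points lie below both Vehicle points for the first 6 genes and above them for Itgav and Itgb1.

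Among the fibrillar collagens, 2 of 8 tested chains fell with PA. Col1a1, the alpha 1 chain of type I collagen, stood at 1.68 and 1.79 FPKM in Vehicle and 0.94 and 0.86 with PA, and its log2 fold change was -0.93 (SE 0.18, adjusted p = 0.000738). Col27a1, a fibrillar chain best known from cartilage, stood at 2.97 and 3.12 FPKM in Vehicle and 1.86 and 1.52 with PA (log2 fold change -0.85, SE 0.11, adjusted p = 2.14e-05). Neither group of libraries overlapped the other for these genes. Col1a2, the chain that pairs with Col1a1 in the same trimer, did not pass, with 1.18 and 1.44 FPKM in Vehicle, 0.91 and 1.26 with PA, and overlapping groups (log2 fold change -0.21, adjusted p = 0.362). Col3a1, the chain of type III collagen, had a log2 fold change of -0.38 (adjusted p = 0.0168), and Col5a1, whose type V fibrils seed those of type I, one of -0.55 (adjusted p = 0.0083), both under 1.5-fold. After the GC trend was removed Col1a1 still passed at -0.59 and Col27a1 did not at -0.42, while the values of Col1a2 and Col3a1 were -0.34 and -0.52.

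Of the 6 tested FACIT collagens, which sit on the surface of fibrils, 3 fell. Col14a1 stood at 1.62 and 1.47 FPKM in Vehicle and 0.91 and 0.75 with PA (log2 fold change -0.89, SE 0.15, adjusted p = 0.000204). Col12a1 stood at 5.92 and 7.01 FPKM in Vehicle and 4.50 and 3.99 with PA (-0.59, SE 0.11, adjusted p = 0.000624). The PA libraries lay below the Vehicle libraries for both genes. After the GC trend was removed the values were -0.88 and -0.66, and both passed. Without Vehicle replicate 2 or PA replicate 2 the change of Col12a1 was -0.46 or -0.49 and was under 1.5-fold. Col16a1 was low, with 0.30 and 0.33 FPKM in Vehicle and 0.16 in each PA library (-0.99, SE 0.37, adjusted p = 0.0417). Its call was lost without any 1 of 8 libraries, all except those of PA+NTP, with adjusted p from 0.0501 to 0.195, and its value was -0.51 after the GC trend was removed.

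Col6a3, a chain of the beaded filaments of type VI collagen, stood at 0.37 and 0.35 FPKM in Vehicle and 0.12 and 0.23 with PA (log2 fold change -0.90, SE 0.25, adjusted p = 0.00811). The groups did not overlap, but without PA replicate 1 the adjusted p was 0.0501. Its partners Col6a1 and Col6a2 did not pass, at -0.57 (adjusted p = 0.0758) and -0.40 (adjusted p = 0.338). None of the 4 tested network collagens passed. Col4a1 had a log2 fold change of -0.11 and Col4a2 one of -0.23, and Col18a1 one of -0.22 (adjusted p = 0.0527). These are the collagens with the highest FPKM here.

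The laminins divided by chain. Lama5 is the alpha chain common in mature basement membranes. It stood at 0.87 and 0.94 FPKM in Vehicle, 0.37 and 0.46 with PA, 0.82 and 0.74 with PA+NTP, 0.58 and 0.51 with LA, and 1.01 and 0.87 with LA+NTP. The change with PA was -1.05 on the log2 scale (SE 0.15, adjusted p = 8.03e-05), and -0.64 after the GC trend was removed, which also passed. Lamb2, a beta chain, stood at 0.84 and 0.80 FPKM in Vehicle, 0.35 and 0.29 with PA, 0.44 and 0.41 with PA+NTP, 0.69 and 0.58 with LA, and 0.82 and 0.91 with LA+NTP. The change with PA was -1.37 (SE 0.22, adjusted p = 0.000154), or -0.99 after removal of the trend. For both genes every PA library lay below every Vehicle library.

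Lamb3, the beta chain of the laminin that anchors epithelia through hemidesmosomes, stood at 0.64 and 0.32 FPKM in Vehicle and 0.19 and 0.13 with PA (log2 fold change -1.61, SE 0.45, adjusted p = 0.0101). The PA libraries held 31 counts of it in sum and the Vehicle libraries 84. Its call was lost without Vehicle replicate 1 (adjusted p = 0.128) or PA replicate 2 (adjusted p = 0.142). Lamc1, the gamma chain that most laminins contain, did not pass. It had 22 and 22.6 FPKM in Vehicle and 23.1 and 24.1 with PA (0.12, adjusted p = 0.131), and was by this measure the highest laminin chain in every group. Lamb1, the more widespread beta chain, stood at 0.05 (adjusted p = 0.889).

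Among the integrin alpha chains that bind laminin, 2 of 3 fell with PA. Itga3 stood at 25.6 and 24.4 FPKM in Vehicle, 14.7 and 14.1 with PA, 22.1 and 21.7 with PA+NTP, 18.2 and 16.6 with LA, and 27.5 and 27.6 with LA+NTP. Its log2 fold change with PA was -0.77 (SE 0.06, adjusted p = 9.71e-07), and after the GC trend was removed it was -0.45 and under 1.5-fold. Itga7, best known as the laminin receptor of muscle, had a log2 fold change of -0.63 (SE 0.19, adjusted p = 0.0163), from 2.32 and 2.26 FPKM to 1.57 and 1.38. It lost its call without Vehicle replicate 1, Vehicle replicate 2 or PA replicate 2 (adjusted p = 0.069, 0.0602 and 0.158), and after removal of the trend, at -0.47. Itga6, the remaining chain of this kind, stood at 11.3 and 11.4 FPKM in Vehicle and 10.5 and 10.8 with PA (-0.06, adjusted p = 0.527).

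Itgav, the alpha chain that pairs with several beta chains and binds RGD, rose with PA. It stood at 24.9 and 26.2 FPKM in Vehicle, 39.7 and 42.6 with PA, 33.9 and 31.5 with PA+NTP, 34.7 and 32.9 with LA, and 24.2 and 23.9 with LA+NTP. Both PA libraries were above all others, and the LA+NTP libraries were below all others. Its log2 fold change with PA was 0.72 (SE 0.06, adjusted p = 9.71e-07), and 0.59 after the GC trend was removed, which also passed. In GENCODE M21, 5.9% of its exon bases lie opposite exons of Gm13684, and whether the counting used strand is not given in the sources used here.

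Itgam, the alpha chain of a leukocyte integrin, also rose, from 0.06 FPKM in each Vehicle library to 0.26 in each PA library (log2 fold change 2.11, SE 0.49, adjusted p = 0.00269). In sum its counts were 13 in Vehicle, 63 in PA, 101 in PA+NTP, 29 in LA and 68 in LA+NTP. These sums are not scaled to the unequal depth of the libraries. In FPKM it stood at 0.37 and 0.31 in PA+NTP, 0.14 and 0.07 in LA, and 0.18 and 0.13 in LA+NTP. Its value is uncertain, because 68.7% of its exon bases also belong to Gm49368 in GENCODE M21. Of 8 tested markers of macrophages, 2 rose and 1 fell with PA. Marco, a scavenger receptor of macrophages, rose from 0.58 to 0.67 FPKM in Vehicle to 2.90 to 3.95 with PA, and Ptprc, the leukocyte antigen CD45, from 0.40 and 0.52 to 0.70 and 0.75 (log2 fold change 0.69). Cd5l, another macrophage gene, fell from 2.70 to 2.84 FPKM to 1.16 to 1.31. The resident macrophage marker Clec4f stood at 0.22 and 0.15 FPKM in Vehicle and 0.03 and 0.05 with PA, without overlap (-1.9, not passed). The summed level of the list, most of it from Cd68, was 209 FPKM in both Vehicle libraries, lay on either side of that with PA, and was 127 to 132 with LA, and Cd68 was lower with LA (-0.67).

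The beta chains did not pass with PA. Itgb1 stood at 178 and 189 FPKM in Vehicle and 211 and 203 with PA, without overlap, but the log2 fold change was 0.21 (adjusted p = 0.00772), and -0.02 after the GC trend was removed. Itgb5, a partner of Itgav, stood at 45.1 and 44.7 FPKM in Vehicle and 31.8 and 33.6 with PA (-0.42, adjusted p = 0.000369), and at -0.16 after removal of the trend. Itgb3 had a log2 fold change of -0.28 (adjusted p = 0.179). For the collagen-binding alpha chains Itga1 and Itga2 the values were -0.04 and 0.40, and for Itga5, the alpha chain of the main fibronectin receptor, -0.27 (adjusted p = 0.00599), all under 1.5-fold.

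**Figure D2:**
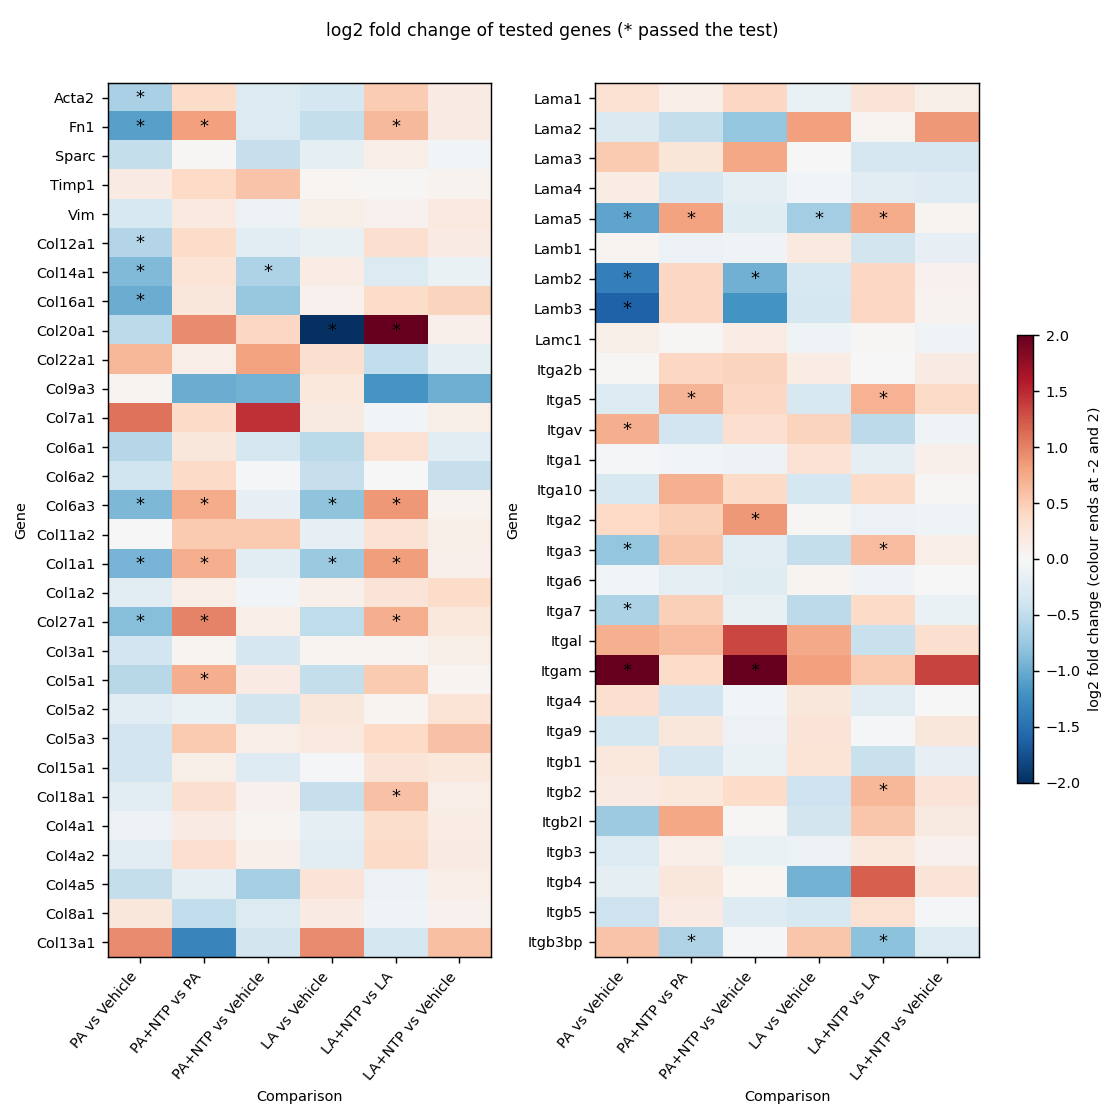
Log2 fold change (colour, ending at -2 and 2) of the tested genes reported here (rows) in 6 comparisons (columns), with a star where the adjusted p was under 0.05 and the fold change at least 1.5. Stars stand in the PA column for 15 genes, in the LA column for 4, and in the column of LA+NTP against Vehicle for none.

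Chains that share a protein were also compared as ratios of FPKM within a library, which were chosen after the values were seen and were not tested. Col1a1 over Col1a2 was 1.42 and 1.24 in Vehicle, 1.03 and 0.683 with PA, 1.26 and 1.13 with PA+NTP, 0.619 and 0.868 with LA, and 0.949 and 1.26 with LA+NTP. The 2 groups with a fatty acid alone thus had the lower ratios against Vehicle without overlap, while the PA+NTP and LA+NTP ranges overlapped that of Vehicle. Col1a1 has the higher GC content of the pair, however, and after the GC trend was removed the log2 fold changes of Col1a1 and Col1a2 lay nearer to each other, at -0.59 and -0.34 with PA, and at -0.36 and -0.05 with LA. Itga3 over Itgb1 was 0.144 and 0.130 in Vehicle, and 0.0696 and 0.0695 with PA. Itgav over Itgb1 was 0.140 and 0.139 in Vehicle, and 0.189 and 0.210 with PA. Itga5 over Itgb1 was 0.0838 and 0.0858 in Vehicle, and 0.0588 and 0.0627 with PA. Relative to their common beta chain, Itga3 and Itga5 were thus lower with PA and Itgav higher, so the 2 chains that bind RGD went opposite ways. The ratios keep the GC trend. After its removal the log2 fold changes with PA were -0.45 for Itga3, 0.03 for Itga5 and 0.59 for Itgav, beside -0.02 for Itgb1.

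Lamb2 over Lamc1 was 0.0382 and 0.0354 in Vehicle, 0.0152 and 0.0120 with PA, and 0.0178 and 0.0161 with PA+NTP. By contrast, Col4a1 over Col4a2 lay between 1.31 and 1.58 in all 10 libraries. In the RefSeq annotation of mouse build GRCm38 these 2 genes stand head to head on chromosome 8. Col4a1 starts on the minus strand at 11312889 and Col4a2 on the plus strand at 11312805. Their annotated starts are thus 84 bases apart, and the 2 genes overlap there.

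**Figure D3:**
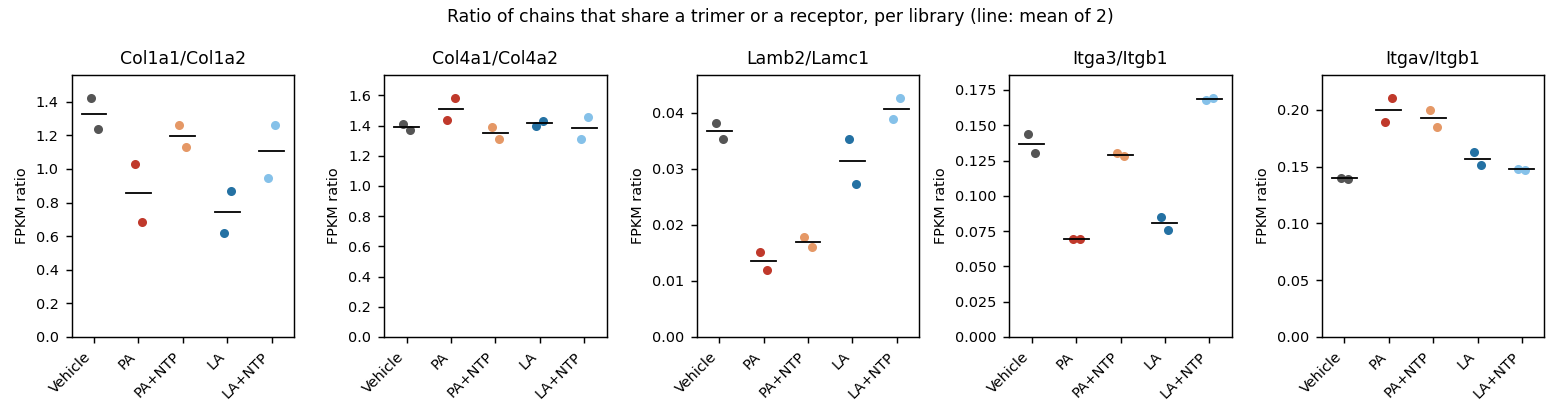
Ratio of the FPKM of chains that share a trimer or a receptor (vertical axes, from 0) in each library, by group (horizontal axes); points are libraries and lines are means of 2. Col4a1 over Col4a2 stays between 1.31 and 1.58, while Lamb2 over Lamc1 and Itga3 over Itgb1 are lower in both PA libraries than in both Vehicle libraries.

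With LA, 4 of the 60 genes (6.67%) fell, near the 7.11% of all genes that fell, and 0 rose, where 3.53% of all genes rose. At an unadjusted p under 0.05 there were 21 genes in either direction, and DESeq2 also called 4. The 4 that fell were Col1a1, Col6a3, Col20a1 and Lama5. Col1a1 stood at 0.86 and 1.18 FPKM with LA (log2 fold change -0.74, SE 0.17, adjusted p = 0.00344), and Lama5 at 0.58 and 0.51 FPKM (-0.69, SE 0.15, adjusted p = 0.00169). Col6a3 stood at 0.22 and 0.20 FPKM (-0.80, SE 0.24, adjusted p = 0.016). For these 3 genes both LA libraries were below both Vehicle libraries. Col20a1, a little studied FACIT collagen, was at 0.31 and 0.15 FPKM in Vehicle and 0.04 in each LA library (-2.49, SE 0.55, adjusted p = 0.00241), which was 42 counts in sum against 9. After the GC trend was removed only Col20a1 of these passed, at -2.14, where 2.49% of all genes fell and 0.858% rose. Without LA replicate 1 Col1a1 did not pass (-0.51, adjusted p = 0.0586), and without either library of Vehicle or of LA Col6a3 did not (adjusted p from 0.0514 to 0.0787). Fn1 (-0.48, adjusted p = 5.2e-05), Itga3 (-0.48) and Itgav (0.45) had small adjusted p but less than 1.5-fold.

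Fold changes followed GC content among these genes too. Spearman's rho between log2 fold change and GC content over the 60 genes was -0.323 for PA and -0.494 for LA, against -0.525 and -0.644 over 13930 genes. The points share libraries, and no p was computed. The 23 genes with at least 55% GC had a median of -0.40 on the log2 scale for PA and -0.32 for LA, and the 37 others -0.06 and 0.06. In the NTP comparisons the sign was the opposite, with medians of 0.41 and 0.40 for the 23 genes. Col14a1 (50.3% GC), Acta2 (49.9%) and Col12a1 (48.3%) lie near the genome-wide median and fell with PA, while Col1a1, Lama5 and Col27a1 lie well above it.

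**Figure D4:**
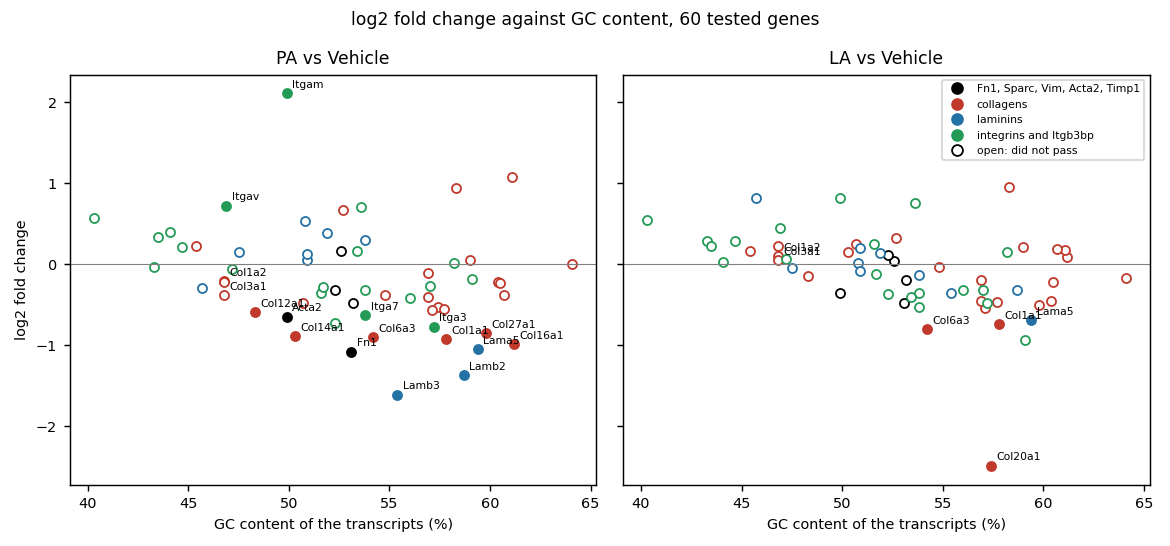
Log2 fold change (vertical axes) against the GC content of the transcripts in percent (horizontal axes) of the 60 tested genes with PA (left) and LA (right), filled where the gene passed the test. Genes of high GC content lie lower on average in both panels, and Itgam and Itgav are the filled points above 0.

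The next comparison asked what NTP pretreatment changed in cells given PA. It shares the PA libraries with the comparison above, so chance values of these libraries enter both, with opposite sign. In PA+NTP, 7 of the 60 genes (11.7%) were higher than in PA, where 8.74% of all genes were, and 1 was lower, where 5.11% of all genes were. The median log2 fold change of the 60 was 0.23. The genes that rose were Fn1, Lama5, Itga5 and the collagens Col1a1, Col27a1, Col5a1 and Col6a3. Fn1 had a log2 fold change of 0.82 (SE 0.06, adjusted p = 7.68e-07), 1.76-fold. Col27a1 stood at 3.56 and 3.27 FPKM in PA+NTP, above both Vehicle libraries (0.99, SE 0.10, adjusted p = 4.84e-06). Lama5 had a value of 0.80 (SE 0.15, adjusted p = 0.000659). Markers of other cell types were mixed. The endothelial markers, at 40.7 to 41.2 FPKM in PA, summed to 45.2 to 49.6 in PA+NTP, with 0 of 9 tested markers called. Higher in PA+NTP were Pdgfrb (0.78) of 10 tested stellate markers, Cd5l (0.65) of 8 macrophage markers and Sox9 (0.66) of 5 cholangiocyte markers. In these lists 0 markers were called lower. Each list also held negative values that did not pass, such as Kdr (-0.27), Lum (-0.7), Ptprc (-0.58) and Epcam (-0.36).

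Itga5, the fibronectin receptor chain, stood at 12.4 and 12.7 FPKM in PA and 21.8 and 20.3 in PA+NTP, above the 14.9 and 16.2 of Vehicle (log2 fold change 0.68, SE 0.07, adjusted p = 4.42e-06). Col1a1 (0.72, adjusted p = 0.00419) lost its call without PA replicate 2 (adjusted p = 0.067), and Col6a3 (0.74, adjusted p = 0.0223) without PA replicate 1 or PA+NTP replicate 1 (adjusted p = 0.125 and 0.0954). Col5a1 had 0.72 (adjusted p = 0.00117). The gene that fell, Itgb3bp, encodes a centromere and nuclear receptor binding protein (-0.60, adjusted p = 0.0209). Its transcripts hold 40.3% GC, the lowest of the 60 genes, and without PA replicate 1, PA replicate 2 or PA+NTP replicate 2 it did not pass (adjusted p = 0.0798, 0.0573 and 0.0945). After the GC trend was removed 2 genes were higher, where 4.28% of all genes were, and 0 lower, where 1.82% of all genes were. The 2 were Fn1, at 0.68 (adjusted p = 1.02e-05), and Itga2, a collagen receptor chain that had not passed before, at 0.74.

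In LA+NTP, 10 of the 60 genes (16.7%) were higher than in LA, where 11.7% of all genes were, and 1 was lower, where 7.57% of all genes were. This comparison shares the LA libraries with that of LA against Vehicle, so chance values of these libraries enter both, with opposite sign. Nothing particular to these genes is read from the counts of either NTP comparison, whose shares lie near the share of all genes. The genes that rose were Fn1 (log2 fold change 0.65, SE 0.06, adjusted p = 1.96e-06), Lama5 (0.74, SE 0.14, adjusted p = 0.000518), the integrin chains Itga3, Itga5 and Itgb2, and the collagens Col1a1, Col18a1, Col20a1, Col27a1 and Col6a3. Col1a1 reached 1.69 and 2.01 FPKM (0.84, SE 0.16, adjusted p = 0.000668). Itga5 stood at 11.5 and 12.6 FPKM in LA and 19.9 and 20.5 in LA+NTP (0.70, SE 0.07, adjusted p = 1.72e-06). Col20a1 went from 9 counts in sum to 97, not scaled to depth, and from 0.04 FPKM in each LA library to 0.24 in each LA+NTP library (2.58, SE 0.52, adjusted p = 0.000768). Itgb3bp was again the gene that was lower (-0.82, adjusted p = 0.00207). Here the endothelial markers summed to 43.1 to 44.6 FPKM in LA and 58.6 to 60.7 in LA+NTP, and 2 of 9 tested, Stab1 (0.83) and Egfl7 (0.60), passed. Of the 10 stellate markers Des was higher (0.73) and Lum lower (-0.75). Of the 10 hepatocyte markers Apoa1 (0.65) and Apoa2 (0.66) were higher, and the list summed to 4690 to 4780 FPKM in LA and 5340 to 5640 in LA+NTP. Negative values that did not pass were those of the endothelial markers Tek (-0.25), Kdr (-0.11) and Lyve1 (-0.06). Among the hepatocyte markers these were Fgb (-0.13), Tat (-0.04) and Cps1 (-0.03). Of 8 tested macrophage markers 0 passed in either direction, with Cd68 at 0.53 and Ptprc at -0.6.

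Several of these calls were near the threshold. Col18a1, at 0.59, lost its call without PA replicate 1, either PA+NTP library, LA replicate 1 or LA+NTP replicate 1 (0.46 to 0.58), and was at -0.05 after the GC trend was removed. Itga3 (0.62) did not pass without LA replicate 2 (0.55), Itgb2 (0.66) without LA replicate 2 or LA+NTP replicate 1 (adjusted p = 0.2 and 0.194), Col6a3 (0.86) without LA+NTP replicate 2 (adjusted p = 0.0638), and Itgb3bp without LA+NTP replicate 2 (-0.57). After the GC trend was removed 1 gene was higher, Col20a1 (2.14), where 4.06% of all genes were, and 1 lower, Col9a3 (-1.73), where 1.66% of all genes were. Col9a3 rests on few counts, 36 in sum in LA and 26 in LA+NTP, with 0.22 and 0.24 FPKM in LA and 0.17 and 0.05 in LA+NTP. Fn1 then had a log2 fold change of 0.48 (adjusted p = 0.000124), under 1.5-fold.

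**Figure D5:**
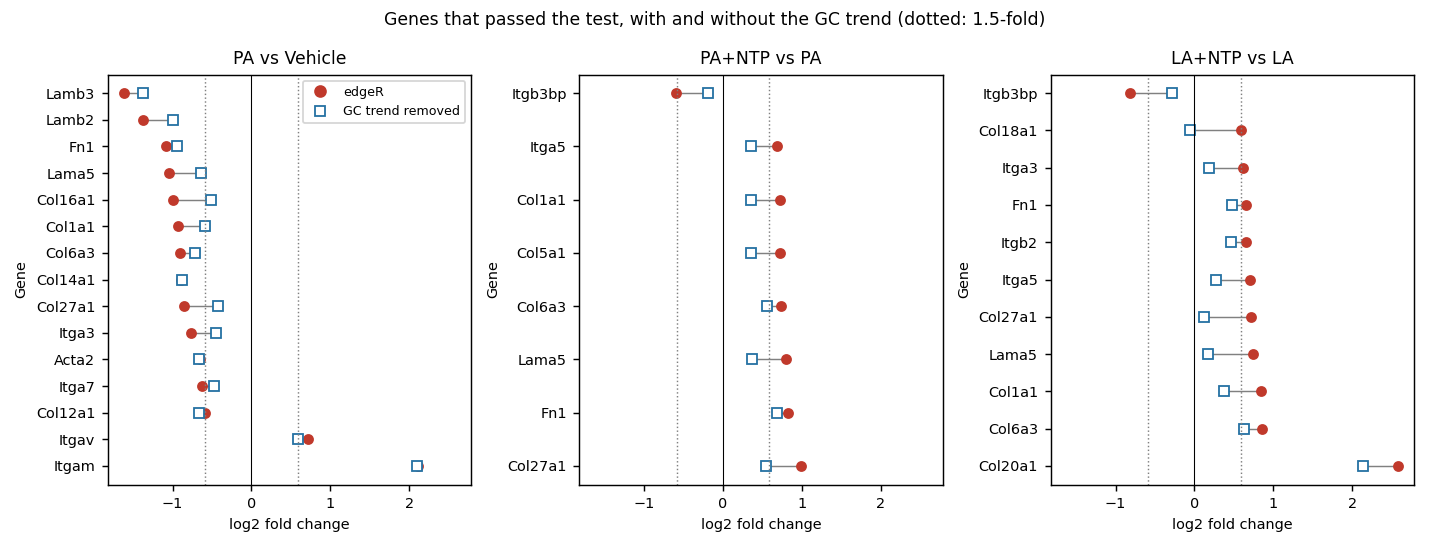
Log2 fold change (horizontal axes, dotted lines at 1.5-fold) of the genes that passed the test with PA, with NTP before PA, and with NTP before LA, from edgeR (circles) and after removal of the GC trend (squares). With PA, Fn1, Lamb2, Lama5, Col14a1 and Acta2 stay past 1.5-fold, while with NTP before LA most squares lie inside the dotted lines.

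Against Vehicle, cells given LA+NTP differed in none of the 60 genes at the threshold (0 by edgeR and 0 by DESeq2, with 10 at an unadjusted p under 0.05), where 0.0355% of all genes were lower and 0.0567% higher. The smallest adjusted p was 0.0421, of Itga5, at a log2 fold change of 0.38. Cells given PA+NTP differed from Vehicle in 4 genes. Lamb2 (-0.96, SE 0.20, adjusted p = 0.00718) and Col14a1 (-0.62, SE 0.14, adjusted p = 0.0102) were lower, where 1.64% of all genes were. Itga2 (0.87, SE 0.10, adjusted p = 9.29e-05) and Itgam (2.47, SE 0.46, adjusted p = 0.00388) were higher, where 1.21% of all genes were. Itga2 stood at 3.32 and 3.06 FPKM in Vehicle, 4.38 and 3.89 in PA, and 6.23 and 5.64 in PA+NTP, above every other library, and at 2.96 to 3.25 in the LA and LA+NTP libraries. Without Vehicle replicate 1 Lamb2 and Col14a1 did not pass (adjusted p = 0.0629 and 0.102), which left 2 genes, and without Vehicle replicate 2 Itgam did not (adjusted p = 0.0543). Fn1 had a log2 fold change of -0.27 in PA+NTP against Vehicle (adjusted p = 0.0174).

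The fatty acids were given at different doses, 200 μM for PA and 12 μM for LA, so their direct contrast compares these treatments and not equal doses. In PA against LA, 5 of the 60 genes were lower, where 2.04% of all genes were, and 1 was higher, where 1.18% of all genes were. Col14a1 stood at 1.72 and 1.58 FPKM in LA, close to Vehicle, and was lower in PA (log2 fold change -1.04, SE 0.14, adjusted p = 0.000393). Lamb2 (-1.05, SE 0.22, adjusted p = 0.00682), Fn1 (-0.60, SE 0.06, adjusted p = 6.89e-05), Col4a5 (-0.74, adjusted p = 0.0379) and Itga9 (-0.60, adjusted p = 0.0191) were also lower. Col20a1 was higher (1.96, adjusted p = 0.0421), and its few LA counts are the same ones as in the LA comparisons above. Of the 6, Col14a1 alone passed whichever library was left out. Fn1 was under 1.5-fold without PA replicate 2 (-0.54) or LA replicate 2 (-0.56), and Lamb2 did not pass without PA replicate 2 or LA replicate 1 (adjusted p = 0.122 and 0.067). Col4a5 was lost without PA replicate 1 or either LA library, Itga9 without PA replicate 2 or either LA library, and Col20a1 without any 1 of 6 libraries, those of PA, LA and LA+NTP. The number called was 2 without PA replicate 2 or without LA replicate 2, and 3 without LA replicate 1.

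The GC trend weighed less on this contrast, in which Spearman's rho over the 60 genes was 0.0408. The values of Col14a1, Lamb2 and Fn1 after its removal were -1.04, -1.09 and -0.61. The difference between the effect of NTP before PA and before LA was tested as an interaction. None of the 60 genes passed (0 by edgeR and 0 by DESeq2, with 5 at an unadjusted p under 0.05), and 0.0% of all genes did. The smallest adjusted p was 0.599, so for no gene here were the effects of NTP before PA and before LA shown to differ.

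Genes that fold, crosslink, cut or sense these proteins were read from lists by symbol. Their counts stand beside those of all tested genes, of which 8.92% fell and 6.0% rose with PA, and 7.11% fell and 3.53% rose with LA. Of 25 tested genes for collagen folding and processing, 1 rose (4.0%) and 3 fell (12.0%) with PA, near the shares of all genes. The median of the 25 on the log2 scale was -0.08. Serpinh1, the collagen chaperone of the endoplasmic reticulum, went from 8.76 and 8.89 FPKM to 5.55 and 5.96 (log2 fold change -0.59, adjusted p = 0.000181). Loxl2, a crosslinking enzyme, was at -0.73 and Pcolce, which speeds the trimming of procollagen, at -1.0. Lox, another crosslinking enzyme, rose (2.26, adjusted p = 0.0171) but reached at most 0.27 FPKM. The median of the 25 after removal of the GC trend was 0.02, and Lox and Loxl2 then passed.

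Matrix proteases moved in both directions. Of 23 tested genes, 3 rose (against 6.0% of all genes) and 5 fell (21.7%, against 8.92%) with PA (median -0.11), and edgeR called 0 in either direction with LA, with 8 at an unadjusted p under 0.05. Mmp13, a collagenase, stood at 0.08 and 0.07 FPKM in Vehicle, 1.84 and 1.94 with PA, 0.98 and 0.73 with PA+NTP, 0.16 and 0.13 with LA, and 0.08 in each LA+NTP library. With PA the log2 fold change was 4.70 (SE 0.37, adjusted p = 6.39e-07), it fell by 1.20 on the log2 scale with NTP before PA (SE 0.25, adjusted p = 0.00135), and it was higher in PA than in LA (3.68, SE 0.32, adjusted p = 9.62e-06). Mmp12, the macrophage elastase, went from 1.93 and 1.70 FPKM to 4.62 and 5.27 with PA (1.5, adjusted p = 2.37e-06), and Mmp3, stromelysin, from 0.06 and 0.08 to 0.33 and 0.47 (2.56, adjusted p = 0.012). These 3 genes passed after the GC trend was removed too. The 5 that fell with PA were Mmp11 (-1.01), Mmp15, a membrane-bound metalloproteinase (-0.99), Plat (-0.91) and Plg (-0.75), which encode a plasminogen activator and plasminogen, and Timp2, an inhibitor of metalloproteinases (-0.81). Mmp11, Plat and Plg passed after removal of the trend, and Mmp15 and Timp2 did not.

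Of 26 other basement membrane and matrix glycoproteins tested, 0 rose and 7 fell with PA (26.9%, against 8.92% of all genes; median log2 fold change -0.31). Hspg2, the proteoglycan perlecan of basement membranes, went from 3.71 and 3.66 FPKM to 1.59 and 1.85 (log2 fold change -1.05, adjusted p = 9.11e-07), Bgn, biglycan, from 10.0 and 10.6 to 5.15 and 5.38 (-0.93, adjusted p = 8.49e-06), and Thbs1, an activator of latent TGF-beta, from 21 and 22 to 12.7 and 10.8 (-0.85, adjusted p = 1.11e-06). Bgn and Thbs1 passed after removal of the GC trend and Hspg2 did not. Of 17 other matrix receptors, 0 rose and 6 fell (35.3%, against the same 8.92%; median -0.23), among them Adgrg1, a receptor of collagen III (-1.40, adjusted p = 4.14e-07), and Ddr1, a collagen-binding tyrosine kinase (-0.91, adjusted p = 1.06e-06). Adgrg1 passed after removal of the trend and Ddr1 did not. With LA 3 genes of each of these lists fell (11.5% and 17.6%, against 7.11% of all genes), and after removal of the trend 0 did, where 2.49% of all genes fell. With PA 3 of the 26 (11.5%) and 1 of the 17 (5.88%) fell after its removal, where 5.42% of all genes did.

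Inside the cell, 35 genes of focal adhesions, the plaques that tie integrins to actin, were tested. With PA 6 fell and 0 rose (median log2 fold change -0.32), and with LA 6 fell and 0 rose (median -0.36), with 27 and 24 of the 35 at an unadjusted p under 0.05. The 6 are 17.1% of the list, against 8.92% of all genes with PA and 7.11% with LA. Zyx, zyxin, went from 123 and 119 FPKM in Vehicle to 58.4 and 66.3 with PA and 61.5 and 62.6 with LA, and stood at 136 and 142 with PA+NTP and 140 and 157 with LA+NTP. Its log2 fold change was 1.1 with NTP before PA (adjusted p = 2.73e-07) and 1.22 before LA (adjusted p = 5.2e-08), and both passed after the GC trend was removed, whereas its decreases with PA and LA did not. Tns1, tensin, fell with PA (-1.03, adjusted p = 3.97e-08). After removal of the trend 3 of the 35 genes fell with PA (Lpp, Parvb and Tns1; 8.57%, against 5.42% of all genes) and 0 with LA (against 2.49%), which is near the shares of all genes. Of 29 genes of TGF-beta signalling and its targets, 0 rose and 7 fell with PA (24.1%, against 8.92%; median -0.37), among them the smooth muscle genes Cnn1 (-0.95, adjusted p = 1.12e-05) and Myl9 (-1.26, adjusted p = 8.49e-06). After removal of the trend 6 of the 29 fell (20.7%, against 5.42% of all genes). Cnn1, Myl9, Tagln and Tgfb3 still passed then, while Ltbp2, Ltbp3 and Smad7 did not, so the 6 include genes that passed only after removal.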

How the data were processed

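RNA from 10 libraries of primary mouse hepatocytes, 2 in each of 5 groups, was analysed, and groups and replicate numbers were taken from the labels. For each library the authors deposited a table that gives every listed gene an expected count and an FPKM value. The expected counts are the estimates the authors made with RSEM after alignment with HISAT and Bowtie2 to mouse build mm10, according to the submitters' processing notes, without scaling between libraries. The FPKM values were scaled by the authors for transcript length and library size, and only values of at least 0.01 are listed, so a gene absent from a library was taken as 0. No tool versions were found in the sources used here. Of the NCBI gene IDs in the tables, 17998 were matched to symbols by ID and 11 by accession in the RefSeq table of GRCm38.p6, and 46 were not matched. No column of another sample was used.

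Expected counts were rounded and fitted over all 10 libraries with edgeR 4.0.16 (R 4.3.3), using TMM normalization, the filterByExpr filter (14097 genes kept, 3958 dropped), 5 groups as one factor and the quasi-likelihood test. The SE given with a log2 fold change was back-calculated from this test. It is the absolute log2 fold change divided by the square root of the F statistic, and not an estimate of the model itself. P-values were adjusted by Benjamini-Hochberg over all 14097 genes across the genome, and a call required both an adjusted p under 0.05 and a change of 1.5-fold or more, the fold in the study's methods. With 2 libraries against 2, an exact two-sided permutation test of one gene cannot go below p = 0.333, so every call borrows its error estimate from the other genes and groups (common biological coefficient of variation 0.0682). Library sums of 13142588 to 60046937 expected counts limit precision, and genes under 1 FPKM rest on few counts. The GC trend was removed per library by loess (span 0.4) over 13930 genes with a GC content from GENCODE M21.

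Members, marker lists and pathway lists were chosen with earlier results of these data known. Named genes are the members called in any comparison, those whose FPKM averaged 1 or more, a fixed set of 16 members, and up to 4 called genes of each list and comparison with the largest change. A few others are named beside a result, chosen after their values were seen. Same-numbered replicates of different groups deviated together with r of only -0.069 to 0.127, so the numbers were not used as pairs. Alternatives were DESeq2 1.42.0, limma 3.58.1 on log2(FPKM + 1) and log2(FPKM + 0.1), library-size scaling, other filters, no fold threshold, removal of trends on GC content or length, a replicate block, leaving out each library, and the rule of NOISeq at probabilities of 0.95 and 0.8, rewritten from its published definition. The edgeR steps were tested on simulated data. Coding sequences and exon overlaps were read from GENCODE M21 (GRCm38). Values of 1 tested gene are not reported here; it stays in the counts and medians over the set.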

Additional observations from a re-analysis of the deposited data

How the results depend on the processing

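Of 48 calls of single genes over 7 comparisons, 24 passed whichever library was left out, and 24 passed after the trend on GC content was removed. A single call reversed, that of Col18a1 in LA+NTP against LA, which went from 0.59 to -0.05 with the GC trend removed and to -0.06 with the replicate block and the GC trend removed. The same-numbered libraries share only a number. With the replicate number as a block 47 of the 48 calls remained, and Col18a1 in LA+NTP against LA (0.58) did not. DESeq2 kept 44 of the 48.

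Counts of genes called are given in the order lower and higher with PA, lower and higher with LA, lower and higher with NTP before PA, lower and higher with NTP before LA, PA+NTP against Vehicle, LA+NTP against Vehicle, PA against LA, and the difference between the NTP effects. The reported counts were 13, 2, 4, 0, 1, 7, 1, 10, 4, 0, 6 and 0. Without a fold threshold they were 20, 6, 15, 4, 5, 14, 3, 16, 11, 1, 15 and 0. With the GC trend removed, and likewise with the replicate block and the GC trend removed, LA lowered 1 gene, NTP before PA raised 2 and lowered 0, and NTP before LA raised 1. The NOISeq rule at a probability of 0.95 called 0 genes in each comparison of 2 groups, and at 0.8 it called 2 lower and 1 higher with PA, 0 lower with LA, 0 lower and 1 higher with NTP before PA, 0 lower and 4 higher with NTP before LA, 0 in PA+NTP against Vehicle and 1 in PA against LA; it was not run for the difference between the NTP effects, which it cannot express. Limma on log2(FPKM + 1) called 4 lower and 1 higher with PA, 0 lower with LA, 0 lower and 3 higher with NTP before PA, 0 lower and 4 higher with NTP before LA, 1 in PA+NTP against Vehicle and 1 in PA against LA. With log2(FPKM + 0.1) there were 3 in PA against LA and 0 lower with NTP before PA. A filter at a mean FPKM of 1 left 8 lower and 1 higher with PA, 1 lower with LA, 0 lower and 4 higher with NTP before PA, and 2 in PA+NTP against Vehicle. Fewer genes were tested under this filter. Itgb3bp was still tested, and with NTP before PA it was at -0.57, under 1.5-fold. Without a filter PA+NTP against Vehicle gave 7. Removal of a trend on gene length gave 3 in PA against LA and 0 lower with NTP before PA, and library-size scaling 0 lower with NTP before PA. The cause of these differences was not tested.

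When each library was left out in turn, the ranges were 10 to 13 lower and 2 higher with PA, 3 to 4 lower and 0 to 1 higher with LA, 0 to 1 lower and 6 to 10 higher with NTP before PA, 0 to 2 lower and 8 to 10 higher with NTP before LA, 2 to 6 in PA+NTP against Vehicle, 2 to 7 in PA against LA, and 0 in LA+NTP against Vehicle and in the difference between the NTP effects. A group reduced to 1 library was assumed to vary like the others. Calls gained in this way include Col4a5 with PA without PA replicate 2 (-1.03), Lamb3 in PA+NTP against Vehicle without PA+NTP replicate 2 (-1.91) and Itgb3bp with LA without LA replicate 2 (0.66). Depth limits the low chains most: Itgam, Lamb3 and Col20a1 rest on 9 to 192 counts in sum per group.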

Other observations

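The lists of genes that work beside the matrix were also read in the NTP comparisons. Of 35 focal adhesion genes, 6 were higher (17.1%, against 8.74% of all genes) and 0 lower with NTP before PA (median log2 fold change 0.43), and 11 were higher (31.4%, against 11.7%) and 0 lower before LA (median 0.46), with 26 and 30 of them at an unadjusted p under 0.05 in edgeR's test. With the GC trend removed 2 were higher in each comparison, Lpp and Zyx, and this 5.71% is near the 4.28% and 4.06% of all genes. Of 17 other matrix receptors 4 (23.5%) and 5 (29.4%) were higher, and after removal of the trend only Adgrg1 was (5.88%), in both comparisons. Adgrg1 stood at 10.1 and 10.2 FPKM in Vehicle, 3.43 and 3.95 with PA, 9.47 and 7.56 with PA+NTP, 7.18 and 6.98 with LA, and 14.95 and 13.95 with LA+NTP.

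Thbs1, which encodes the secreted glycoprotein thrombospondin, was higher in LA+NTP than in Vehicle, as few genes were. It stood at 21 and 22 FPKM in Vehicle, 20.7 and 20.4 with LA, and 34.8 and 34.1 with LA+NTP (log2 fold change 0.68 against Vehicle, adjusted p = 0.000763), a difference that also passed after the GC trend was removed. Plat, the tissue plasminogen activator, differed between the fatty acids, at 7.09 and 7.25 FPKM in Vehicle, 3.51 and 3.88 with PA, 7.62 and 7.66 with LA, and 10.7 and 10.5 with LA+NTP. Its log2 fold change in PA against LA was -1.04 (adjusted p = 3.28e-05), at doses that were not matched.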
